A study of Mus musculus with 45 samples.

Results

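Col1a1, Col1a2, Col3a1, Col4a1, Acta2, Timp1, Tgfb1, Lox, Des and Pdgfrb are 10 genes that mark collagen deposition and the cells that carry it out in the liver. They were chosen by name, and all 10 were found among the 22080 genes of the expression table, each with 1 probe set. Their levels were measured on 45 Affymetrix mouse gene arrays from liver, kidney and brain of wild-type male C57BL/6 mice that entered the study at 7 weeks of age. Each of 5 diets was given to 8 mice, which were sacrificed on day 43 after 8 h without food and water. Control mice received the AIN-93 diet alone. HCD mice received AIN-93 with 0.5% cholesterol, and every other group also carried that cholesterol. HCD+Gl-1 and HCD+Gl-2 mice had 1.0% of an extract of the mushroom Ganoderma lucidum added, grown on a substrate without (Gl-1) or with (Gl-2) 10 mM acetylsalicylic acid. HCD+Sim mice had simvastatin, an inhibitor of cholesterol synthesis, added at 0.03% of the diet by weight. Each tissue and diet had 3 arrays, pools A, B and C. The study's methods describe pools A and B as RNA from 4 different animals each and pool C as their mixture. By that account the arrays of a group come from 2 separate pools, and p-values measure only the spread between such arrays. The values do not all follow it, since in liver pool C lay between pools A and B for 26.1 to 33.4% of genes. In Control and HCD+Sim, markers of other tissues that were high in pools A and B were lower in pool C.

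Hepatic stellate cells lie between hepatocytes and the sinusoidal endothelium and store vitamin A. When the liver is injured they can turn into contractile myofibroblasts, which make smooth muscle actin (Acta2) and secrete the fibrillar collagens of scar tissue. Transforming growth factor beta 1 (Tgfb1) drives this change, platelet-derived growth factor acting on the receptor Pdgfrb drives the cells to divide, Timp1 blocks the proteases that would break matrix down, and lysyl oxidase (Lox) cross-links collagen fibres. Desmin (Des) is an intermediate filament of rodent stellate cells and of all muscle. Acta2 is also made by the smooth muscle of blood vessels. Whether cholesterol feeding had started such a response in the liver was the question put to these genes.

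Arrays matched their labelled tissues. Alb, the albumin gene, lay between 13.69 and 13.78 on the log2 scale in liver and reached at most 7.95 in kidney. Umod of the kidney tubule lay between 12.15 and 12.50 in kidney and at most at 5.72 in liver, and the synaptic gene Snap25 lay between 12.94 and 13.50 in brain and at most at 6.34 elsewhere. Arrays of a group correlated at 0.985 to 0.997. Several liver arrays had high values for marker genes of other tissues. The pancreas list was high on HCD+Sim pools A and B, markers of skeletal muscle on these and on the Control arrays, and markers of squamous epithelium on Control pools A and B. The study describes higher pancreatic lipase and muscle genes under simvastatin as effects of the drug. Where this RNA came from was not tested. Values of these markers stand beside Acta2 and Des below. Timp1 and Lox lay among the dimmest genes, above only 15.0 to 22.6% and 11.7 to 19.4% of the genes on a liver array, and a low signal on an array limits how large a difference can be seen.

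No fibrosis gene rose in liver under cholesterol feeding, and Acta2 fell. Differences are log2 values from limma with Benjamini-Hochberg adjustment over all genes. A gene was called at the study's thresholds, a difference over 0.7 in size with an adjusted p of at most 0.05. By that rule 0 of the 10 genes were called between HCD and Control livers, where 0.245% of all genes were. At an unadjusted p under 0.05 there were 4 (Col1a1, Col1a2, Acta2 and Des), all lower in HCD, where 10.3% of all genes passed in either direction. With an adjusted p of at most 0.05 and no fold threshold there was 1, Acta2, against 1.34% of all genes. The 10 differences ran from -0.52 (Acta2) to 0.07 (Tgfb1) with a median of -0.14, beside -0.01 over all genes, and 9 were below 0. The highest upper end of a 95% confidence interval was 0.24, for Tgfb1, so a rise of 0.7 lay outside the interval of each of the 10 genes.

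**Figure D1:**
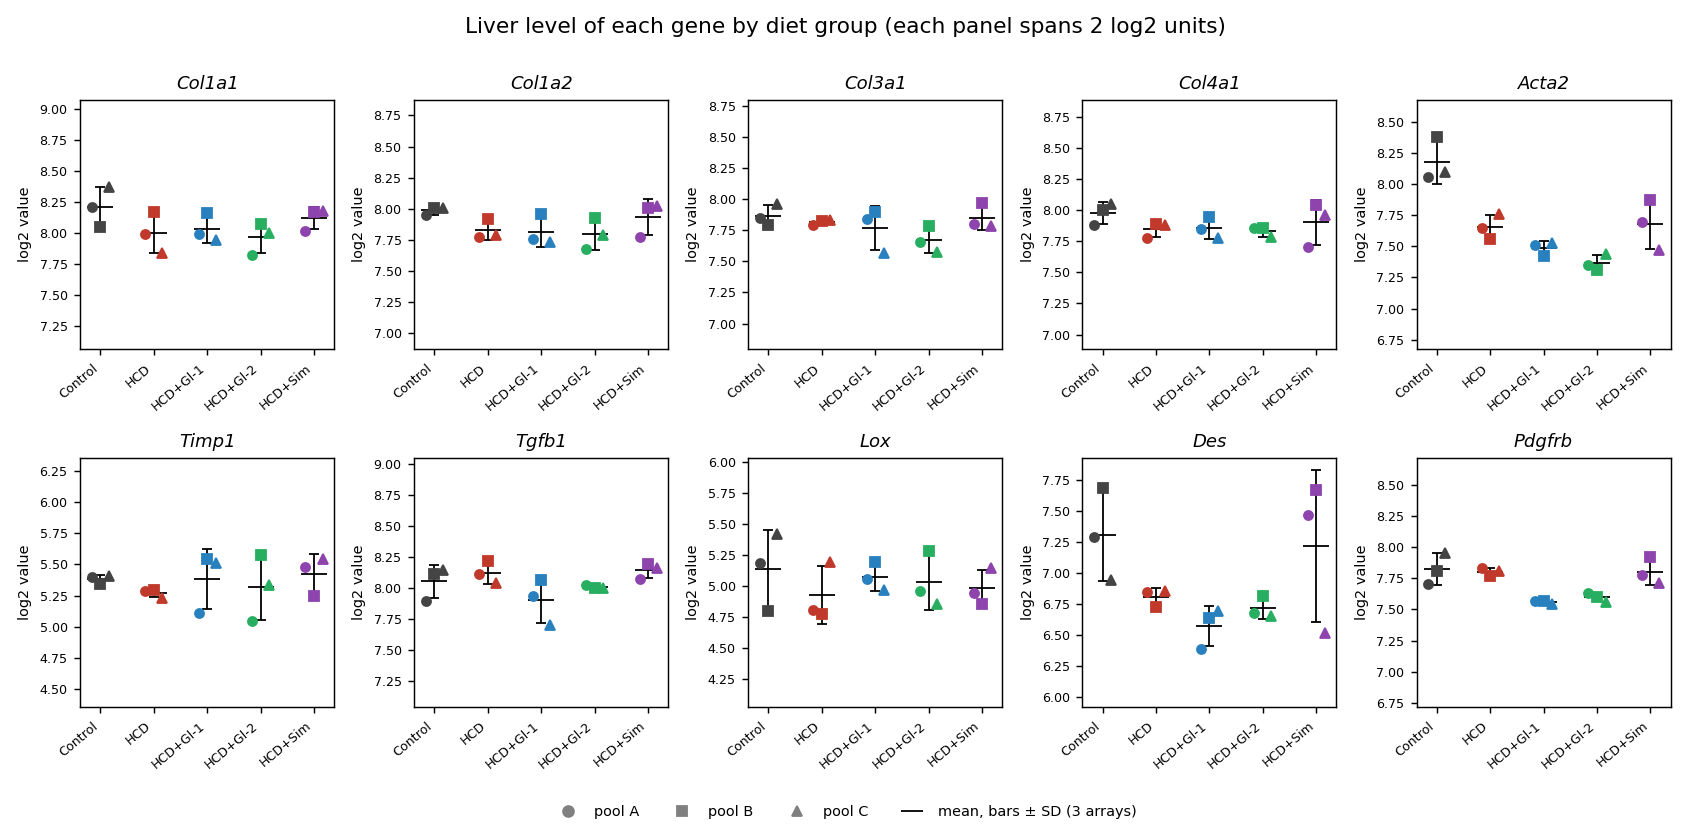
Log2 values of the 10 genes on the 15 liver arrays, by diet group on the horizontal axis. Circles, squares and triangles are pools A, B and C, black bars give the mean ± SD of 3 arrays, and each panel spans 2 log2 units. Acta2 is the panel in which all Control arrays (8.06 to 8.38) lie above all 12 cholesterol-fed arrays (7.31 to 7.87), and Des shows the widest spread, in HCD+Sim (6.52 to 7.67).

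Acta2 was 8.06, 8.38 and 8.10 on Control pools A, B and C. It was 7.65, 7.56 and 7.76 under HCD, so the groups did not overlap. The difference was -0.52 ± 0.09 (SE), 1.44-fold lower in HCD on the linear scale, with limma's adjusted p = 0.000536. By p it stood at place 47 of 22080 genes. The values were 7.51, 7.42 and 7.53 under HCD+Gl-1, 7.35, 7.31 and 7.44 under HCD+Gl-2, and 7.69, 7.87 and 7.47 under HCD+Sim. All 12 cholesterol-fed arrays thus lay below all 3 Control arrays, which held for 0.661% of all genes. Averaged over the 4 cholesterol-fed groups, Acta2 fell by 0.63 ± 0.07 against Control (1.55-fold, limma's adjusted p = 1.32e-07, place 16). That size was under the threshold of 0.7, so Acta2 was not called in either comparison. Both comparisons use the same Control arrays. The adjusted p for HCD against Control rose to 0.0654 when liver arrays alone were fitted and to 0.114 when the Control and HCD arrays alone were fitted, and for the mean of the 4 groups it was 0.00143 with liver arrays alone. In whole liver RNA, fewer cells of a type and less RNA per cell cannot be told apart.

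Des was 7.29, 7.68 and 6.94 on Control pools A, B and C and 6.84, 6.72 and 6.86 under HCD. No value overlapped, but the lowest Control and the highest HCD array lay close together. The difference was -0.50 ± 0.16 with limma's adjusted p = 0.145, which missed the threshold. In the mean of the 4 cholesterol-fed groups Des was lower than in Control by 0.48 ± 0.13, with limma's adjusted p = 0.0372. However, 2 arrays of HCD+Sim (7.46 and 7.67) lay among the Control values and the third, pool C, at 6.52. Without Control pool B the difference of that mean from Control was -0.29 with limma's adjusted p = 0.502. With pools A and B alone Des was called lower in HCD than in Control, at -0.70 with limma's adjusted p = 0.00157.

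**Figure D2:**
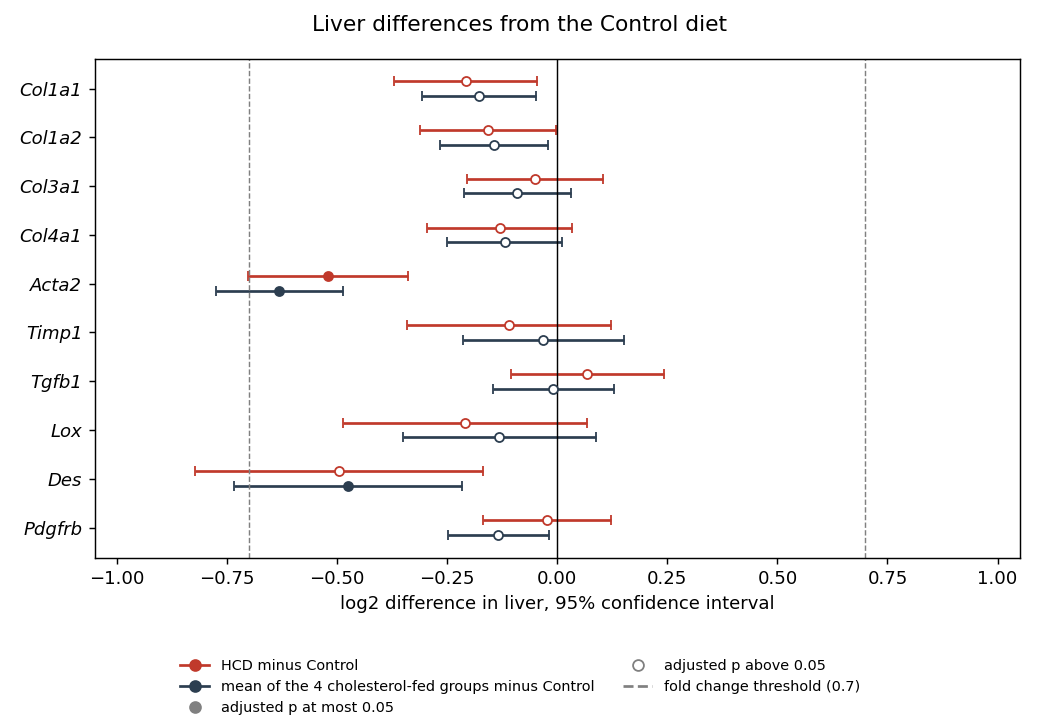
Liver differences from Control for the 10 genes, as log2 values on the horizontal axis with 95% confidence intervals from limma. Red is HCD minus Control and dark blue the mean of the 4 cholesterol-fed groups minus Control, filled circles have an adjusted p of at most 0.05, and dashed lines mark 0.7 in size. Acta2 is filled for both, Des for the mean of 4 groups (-0.48), and no interval reaches 0.7 on the right.

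The collagen genes moved little. Col1a1, which encodes a chain of type I collagen, the main fibre of scar, was 8.21, 8.05 and 8.37 in Control pools A, B and C and 7.99, 8.17 and 7.84 in HCD. These ranges overlapped, and the difference was -0.21 (95% interval -0.37 to -0.05, limma's adjusted p = 0.274). Col1a2, the partner chain, was 7.95, 8.00 and 8.01 in Control and 7.78, 7.92 and 7.79 in HCD. The HCD values lay just below the Control values, with a difference of -0.16 (-0.31 to -0.002, limma's adjusted p = 0.474). For Col3a1, the type III collagen chain laid down early in scar, the values were 7.85, 7.79 and 7.96 in Control and 7.80, 7.82 and 7.83 in HCD, a difference of -0.05 (-0.20 to 0.10, limma's adjusted p = 0.913). Col4a1, a chain of the type IV collagen of basement membranes, gave -0.13 (-0.30 to 0.03, limma's adjusted p = 0.638). None of the 4 collagens passed the adjusted p, and their shared direction is a description of 3 Control arrays that all 4 genes were read from.

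Of the signalling genes, Tgfb1 was 7.90, 8.11 and 8.15 in Control and 8.11, 8.22 and 8.04 in HCD. The ranges overlapped and the difference was 0.07 (-0.11 to 0.24, limma's adjusted p = 0.882), the sole value above 0 among the 10 genes. Pdgfrb was 7.71, 7.81 and 7.96 in Control and 7.83, 7.77 and 7.81 in HCD, a difference of -0.02 (-0.17 to 0.12, limma's adjusted p = 0.966). Timp1 lay between 5.34 and 5.41 in Control and between 5.23 and 5.30 in HCD, a difference of -0.11 (-0.34 to 0.12, limma's adjusted p = 0.844). Lox spread from 4.80 to 5.42 in Control and from 4.77 to 5.20 in HCD, and its difference of -0.21 had an interval of -0.49 to 0.07 (limma's adjusted p = 0.672). In all, 4 of the 10 genes (Col1a2, Acta2, Timp1 and Des) had all HCD values below all Control values, which was so for 8.77% of all genes.

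When the 4 cholesterol-fed groups were averaged, all 10 genes lay below Control, from -0.63 (Acta2) to -0.01 (Tgfb1) with a median of -0.13, beside 0.00 over all genes. None was called, where 0.217% of all genes were. At an unadjusted p under 0.05 there were 5 genes, beside 12.0% of all genes, and with an adjusted p of at most 0.05 there were 2, Acta2 and Des, against 2.06% of all genes. Among the other 8 genes the adjusted p was lowest for Col1a1, at 0.176 for a difference of -0.18. The highest upper end of an interval was 0.15, for Timp1.

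Promoter sequences are shown for Acta2 and Des, which passed the adjusted p in the mean of the 4 cholesterol-fed groups against Control. Neither was called, and Des did not pass in HCD against Control. Serum response factor drives many contractile genes through the CArG box (a pair of C, a run of 6 A or T and a pair of G), and its part here was not tested. The sequences are taken from RefSeq on GRCm38.p6, which held 7 of the 10 genes, and cover the 250 bases before the transcription start. The Acta2 stretch lies on the minus strand at chr19:34255374-34255623 and the Des stretch on the plus strand at chr1:75360042-75360291. Both are printed 5′ to 3′ on the strand of the gene, and capitals mark CArG-like boxes, in which at most 1 of the 6 middle bases is G or C.
Acta2: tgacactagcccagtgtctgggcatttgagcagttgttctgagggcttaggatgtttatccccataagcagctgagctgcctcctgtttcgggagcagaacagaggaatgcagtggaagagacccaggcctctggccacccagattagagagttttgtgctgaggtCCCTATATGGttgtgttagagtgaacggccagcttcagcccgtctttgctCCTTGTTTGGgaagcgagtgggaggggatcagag
Des: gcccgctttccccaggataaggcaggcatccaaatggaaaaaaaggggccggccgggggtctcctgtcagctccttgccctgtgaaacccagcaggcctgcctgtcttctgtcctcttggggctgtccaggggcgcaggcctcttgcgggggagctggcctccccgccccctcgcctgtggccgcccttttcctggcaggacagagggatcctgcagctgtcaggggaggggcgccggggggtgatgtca

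The Acta2 stretch held 2 CArG-like boxes, from 84 to 75 and from 34 to 25 bases before the start. The Des stretch held none, and of the other 5 promoters only that of Col1a2 held 1. Searched on both strands, 8.59% of 32851 promoters of this length held a CArG-like box and 1.47% an exact CArG box, and 0 of the 7 genes held an exact one. A match describes these letters and no more.

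Neither extract nor simvastatin moved the genes past the threshold in liver, and these 3 comparisons share the HCD arrays. By limma, 0 of 10 genes were called in HCD+Gl-1 against HCD (0.163% of all genes called), 0 in HCD+Gl-2 against HCD (0.303%) and 0 in HCD+Sim against HCD (0.258%). The lowest adjusted p among the 10 genes was 0.058, 0.101 and 0.273. At an unadjusted p under 0.05 there were 2, 2 and 1, where 16.6%, 12.6% and 11.7% of all genes passed. Pdgfrb was the nearest to the threshold, at 7.57, 7.57 and 7.55 under HCD+Gl-1, all below the HCD values of 7.77 to 7.83. Its difference was -0.24 ± 0.07 with limma's adjusted p = 0.058. It passed under 2 of 7 alternatives, at 0.041 without dim genes and 0.0494 with trend and robust eBayes, and at 0.0433 without HCD+Gl-1 pool B, and over all 7 alternatives limma's adjusted p reached 0.484. Under HCD+Gl-2 the Pdgfrb difference from HCD was -0.20 (limma's adjusted p = 0.164), and Acta2 gave -0.29 (-0.47 to -0.11, limma's adjusted p = 0.101). Under HCD+Sim 9 of the 10 differences were above 0, and the size was largest for Des, at 0.41 (0.08 to 0.74, limma's adjusted p = 0.273). That value differed between arrays: with pools A and B alone Des was called higher, at 0.78 with limma's adjusted p = 0.00059, and with pool C as the sole HCD+Sim array the difference was -0.29.

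**Figure D3:**
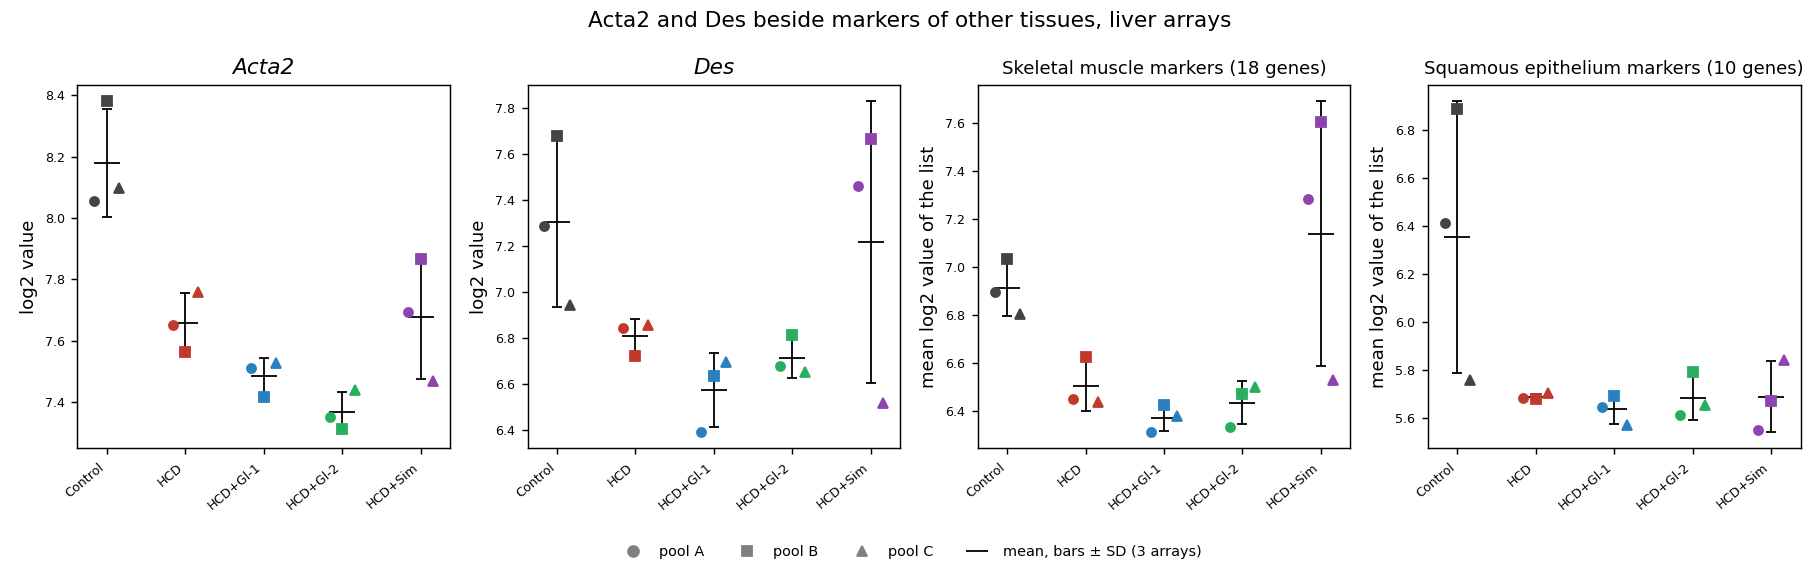
Log2 values on the liver arrays of Acta2, of Des, and of the mean over 18 skeletal muscle markers and over 10 squamous epithelium markers, by diet group. Symbols are pools A, B and C, and bars give the mean ± SD of 3 arrays. The muscle mean is highest on HCD+Sim pools A and B (7.28 and 7.60) and reaches 7.03 in Control, and the squamous mean on Control pools A and B (6.41 and 6.89).

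Skeletal muscle markers are set beside Acta2 and Des here, and their part in these results was not tested. Des was high along with these markers on HCD+Sim pools A and B, while Acta2 lay below every Control array there. All 18 skeletal muscle markers were lower in HCD than in Control livers, with a median of -0.35, and 1 was called (the myosin gene Myh1, -1.03, limma's adjusted p = 0.0134). Their summed linear signal ranged from 2393 to 2979 in Control, from 1713 to 2135 over the arrays of HCD and of both extracts, and was 3537, 4581 and 1909 on HCD+Sim pools A, B and C. Acta1, the skeletal muscle actin, was 8.36, 8.65 and 8.16 in Control, 7.32, 7.73 and 7.39 in HCD, and 9.00, 9.73 and 7.28 in HCD+Sim. Des and Acta1 both had their 4 highest liver values on Control pools A and B and HCD+Sim pools A and B. On HCD+Sim pools A, B and C Acta2 was 7.69, 7.87 and 7.47, each below every Control array. Acta1 lay above every Control array on HCD+Sim pools A and B. Within Control and within HCD+Sim both genes were highest on pool B. In HCD and in both extract groups Acta2 was highest on pool C and Acta1 on pool B. Actin genes are alike in their coding sequence, and how far their probe sets read each other's RNA was not tested.

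Squamous epithelium markers were high on part of the Control arrays. Krt4, a keratin of stratified epithelium, was 7.80, 8.63 and 5.82 on Control pools A, B and C and between 5.53 and 6.10 on all cholesterol-fed arrays, and of 10 such markers 7 were lower in HCD and 4 were called. Their summed linear signal was 997, 1492 and 616 on Control pools A, B and C and ranged from 526 to 632 on the cholesterol-fed arrays. On Control pool C Krt4 and the summed signal lay within the range of the cholesterol-fed arrays. Krt13, another keratin of the list, was 6.02 there, against at most 5.83 on the cholesterol-fed arrays. Acta1 of skeletal muscle was also higher on Control pool C (8.16) than on the HCD arrays (at most 7.73). Acta2 on Control pool C was 8.10, above all cholesterol-fed arrays, and the part of other tissues in that value was not tested. In a fit with Control pools A and B both left out, 1 Control array remained and its spread was taken from the other groups. Against that array Acta2 was -0.44 in HCD and -0.55 in the mean of the 4 groups. Des then gave -0.13 and -0.11. With the HCD+Sim arrays left out of the mean, Acta2 was -0.67 and Des -0.61 (limma's adjusted p = 6.95e-08 and 0.00526). In each of these fits 0 of the 10 genes were called. Pancreas acinar markers were higher in HCD+Sim than in HCD for all 10 genes of the list, 9 of them called, with a summed linear signal of 2613, 3820 and 993 on pools A, B and C and of 826 to 970 on all other liver arrays.

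Markers of the resident liver cells gave the following values beside the fall of Acta2. Among 21 other stellate cell markers 10 were higher and 11 lower in HCD than in Control, with a median of 0.00 and 0 past the adjusted p. Lrat, which makes the stored vitamin A esters, was 8.83, 8.95 and 8.92 in Control and 9.06, 9.05 and 8.93 in HCD. Reln, the reelin gene, lay between 9.06 and 9.14 in Control and between 9.14 and 9.16 in HCD. Their summed signal over the 21 genes ranged from 9847 to 10219 in Control and from 9244 to 9444 in HCD. Of 14 genes of smooth muscle and the myofibroblast contractile apparatus, 11 were lower in HCD (median -0.10) and 0 passed the adjusted p. In the mean of the 4 groups against Control, Myl9 (-0.40) and Cnn1 (-0.27), a myosin light chain and calponin, were lower with limma's adjusted p = 0.0212 and 0.036. Myh11, the smooth muscle myosin heavy chain, gave -0.17 there (limma's adjusted p = 0.0692) and Tagln -0.23 (limma's adjusted p = 0.199). For 8 mural cell markers the median in HCD was -0.06 and 0 passed. Kupffer cell and macrophage markers had a median of -0.20, with 16 of 19 lower and Marco, a scavenger receptor, at -0.64 with limma's adjusted p = 0.000837. Medians were 0.05 for 12 sinusoidal endothelium markers, -0.02 for 10 hepatocyte markers, -0.05 for 8 cholangiocyte markers, -0.12 for 6 adipose markers, and 0.01 and -0.04 for 10 kidney and 10 brain markers, with 0 past the adjusted p in HCD.

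The wider matrix programme was also level. In 6 lists with 117 other genes (collagens, matrix glycoproteins and proteoglycans, collagen processing, matrix proteases, TGF-beta and PDGF signalling) 0 were called between HCD and Control, 52 were higher, and the median was -0.01. The sole gene past the adjusted p was Mmp14, a membrane-bound collagenase, which fell by 0.42 ± 0.09 (limma's adjusted p = 0.00735). Between the mean of the 4 cholesterol-fed groups and Control 0 of the 117 were called, while Mmp14 was lower in that mean by 0.45 ± 0.07 with limma's adjusted p = 7.45e-05. Medians by list were -0.01 for 19 collagens, -0.07 for 29 glycoproteins and proteoglycans, -0.03 for 18 processing genes, 0.02 for 20 proteases and inhibitors, 0.05 for 25 TGF-beta genes and 0.03 for 6 PDGF genes. Under HCD+Gl-2 against HCD Thbs1, the gene of thrombospondin, which can activate latent TGF-beta, was called higher (0.79 ± 0.12, limma's adjusted p = 5.55e-05). Tgfb1 itself gave -0.11 in that comparison (limma's adjusted p = 0.657). Under HCD+Gl-1 against HCD 3 TGF-beta genes fell at an adjusted p of at most 0.05 without being called, Smad6 (-0.37), Ltbp4 (-0.37) and Eng (-0.36), with limma's adjusted p = 0.00926, 0.0116 and 0.00226. Tgfb1 was -0.22 there with limma's adjusted p = 0.167. Under HCD+Sim against HCD 0 of the 117 passed, and Tpm2, a tropomyosin of smooth and skeletal muscle in the contractile list, was called higher (0.78, limma's adjusted p = 0.00141). Steap4, listed with the stellate cell markers, was called higher under HCD+Gl-1 (0.81, limma's adjusted p = 0.000281).

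**Figure D4:**
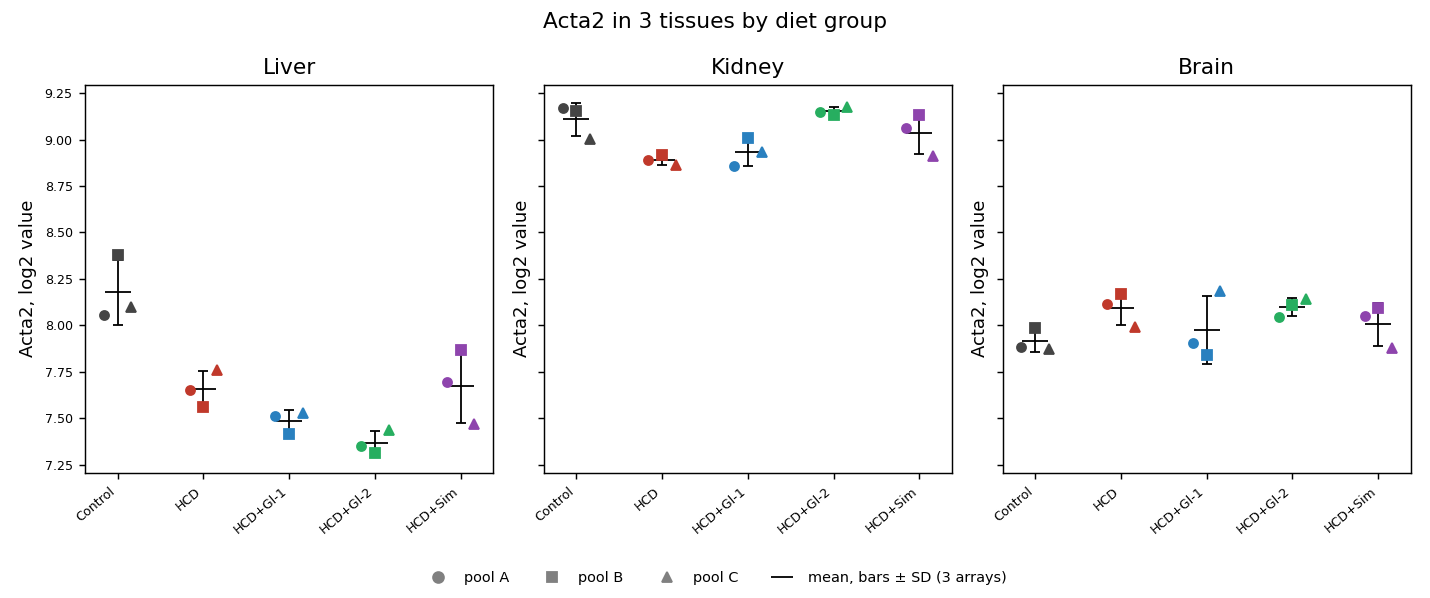
Log2 value of Acta2 on all 45 arrays, in liver, kidney and brain, by diet group. Symbols are pools A, B and C, and bars give the mean ± SD of 3 arrays. Control lies above the cholesterol-fed groups in liver (8.06 to 8.38 against 7.31 to 7.87), kidney arrays stay between 8.86 and 9.18, and brain arrays between 7.84 and 8.18.

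Diet moved none of the genes past the threshold in kidney or brain. In kidney 0 of 10 were called by limma for HCD against Control (0.0408% of all genes called), for HCD+Gl-1 (0.131%), for HCD+Gl-2 (0.335%) and for HCD+Sim (0.140%) against HCD, and for the mean of the 4 cholesterol-fed groups against Control (0.00453%). At an unadjusted p under 0.05 there were 2, 0, 3, 1 and 0, where 4.47%, 4.00%, 8.97%, 6.19% and 4.91% of all genes passed. In brain the same 5 comparisons also gave 0 of 10, with 0.0317%, 0.00906%, 0.0226%, 0% and 0.0136% of all genes called and 0, 2, 1, 0 and 0 of the 10 genes at an unadjusted p under 0.05, where 6.44%, 5.55%, 6.65%, 5.53% and 12.2% of all genes passed. In kidney Acta2 was 9.17, 9.15 and 9.00 in Control and 8.89, 8.92 and 8.86 in HCD, a difference of -0.22 with limma's adjusted p = 0.944. In brain it was 7.89, 7.99 and 7.88 in Control and 8.11, 8.17 and 7.99 in HCD, a difference of 0.18 with limma's adjusted p = 0.794. The directions were opposite, and neither difference passed the adjusted p. Lox in kidney gave -0.36 (limma's adjusted p = 0.803), and Tgfb1 in brain gave 0.32 under HCD+Gl-1 against HCD (limma's adjusted p = 0.287).

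The response of Acta2 to HCD differed between liver and brain. The liver difference minus the brain difference was -0.70 ± 0.13 with limma's adjusted p = 0.00364, of a size just under 0.7. It was the 1 gene of 10 past the adjusted p, beside 0.326% of all genes, and 0 of 10 were called, beside 0.190%. Between liver and kidney the Acta2 responses differed by -0.30 ± 0.13 (limma's adjusted p = 0.56), and 0 of 10 genes were called, beside 0.149% of all genes. For Des the values were -0.53 against brain and -0.57 against kidney (limma's adjusted p = 0.47 and 0.535). At an unadjusted p under 0.05 there were 2 genes in each, Acta2 and Des, beside 7.13% of all genes against kidney and 8.77% against brain. The tissues of a diet may come from the same mice, and the fit treated the 45 arrays as independent.

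**Figure D5:**
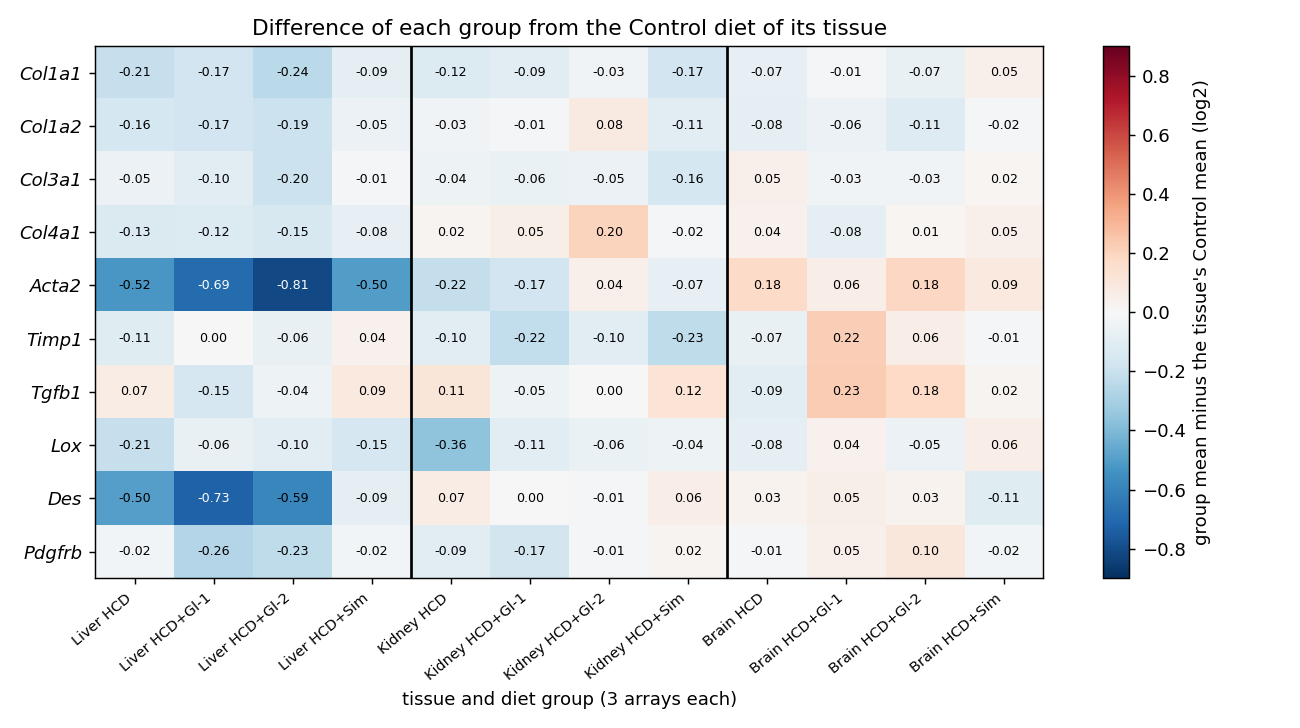
Difference of each cholesterol-fed group's mean from the Control mean of its tissue (log2, colour and printed value), for the 10 genes in rows and 12 groups of 3 arrays in columns. Liver Acta2 (-0.50 to -0.81) and Des in HCD, HCD+Gl-1 and HCD+Gl-2 (-0.50 to -0.73) hold the darkest cells, and kidney values lie between -0.36 and 0.20 and brain values between -0.11 and 0.23.

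Tissues were compared on the Control diet, where the shares of the 10 genes called lay near those of all genes. In Control arrays 2 of 10 were called between liver and kidney, both lower in liver, where 16.8% of all genes were called. Acta2 was 8.18 ± 0.18 (SD, n = 3) in liver and 9.11 ± 0.09 in kidney, a difference of -0.93 with limma's adjusted p = 1.44e-11. Pdgfrb was 7.82 ± 0.13 in liver and 8.53 ± 0.10 in kidney, a difference of -0.71 with limma's adjusted p = 5.28e-11, just past the threshold. Col4a1 was 7.98 ± 0.09 in liver and 8.48 ± 0.08 in kidney, and Col3a1 7.87 ± 0.09 and 7.51 ± 0.09, which passed the adjusted p but not the fold. Des and Col1a1 were higher in liver by 0.53 and 0.20 (limma's adjusted p = 0.00648 and 0.0427). Col1a2, Timp1, Tgfb1 and Lox passed neither. With an adjusted p of at most 0.05 alone 6 of 10 passed, beside 48.4% of all genes.

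Between liver and brain 4 of 10 were called, all higher in liver, where 32.7% of all genes were called. These were Des (7.30 ± 0.37 against 5.90 ± 0.06, a difference of 1.40), Col3a1 (7.87 ± 0.09 against 6.72 ± 0.08, 1.15), Tgfb1 (8.05 ± 0.13 against 7.20 ± 0.10, 0.85) and Col4a1 (7.98 ± 0.09 against 7.26 ± 0.05, 0.72), with limma's adjusted p from 1.30e-16 to 6.13e-10. Pdgfrb went the other way, at 7.82 in liver and 8.09 ± 0.05 in brain (-0.27, limma's adjusted p = 0.00115). Between kidney and brain 4 of 10 were called, all higher in kidney, where 30.0% of all genes were called: Col4a1 (1.22), Acta2 (1.19), Des (0.88) and Col3a1 (0.79), with limma's adjusted p between 1.85e-16 and 9.91e-06. With an adjusted p of at most 0.05 alone 9 of 10 passed in each comparison with brain, beside 70.0% of all genes for liver and 59.1% for kidney. Timp1 was the 1 gene that passed the adjusted p in none of the 3 tissue comparisons, with group means of 5.38 in liver, 5.42 in kidney and 5.23 in brain.

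Across the 15 liver arrays the genes fell into unlike patterns. The 6 pairs among the 4 collagens had Pearson r from 0.61 to 0.83, highest for Col1a1 with Col1a2, and the 39 other pairs had a median r of 0.37. Acta2 correlated with Des at 0.75. Closest to Acta2 over all genes were Spon2 (r = 0.94), Scpep1 (0.91) and Slc30a10 (0.91). Spon2, a secreted matrix protein, was 7.87, 8.08 and 8.08 in Control and 7.51, 7.24 and 7.35 in HCD. It fell by 0.64 ± 0.10 (limma's adjusted p = 8.40e-05). Since Spon2 was picked by its likeness to Acta2 on these same arrays, its fall is not a separate result. Closest to Des were Acta1 (0.93), LOC102641264 (0.93) and Myh1 (0.91). Closest to Col3a1 was Ddost (0.92), to Pdgfrb Cfl1 (0.91), to Tgfb1 Slc39a13 (0.90), to Col1a2 Gm9970 (0.89), to Timp1 Cdc25c (0.88), to Col1a1 Col1a2 (0.83), to Col4a1 Ngfrap1 (0.83) and to Lox Cd200r4 (0.83). These coefficients describe 15 arrays that share pools and diets.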

How the data were processed

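The authors deposited log2 expression values of 45 arrays. By their methods the probe signals were background-corrected with RMA, quantile normalized, adjusted with ComBat for a batch effect and annotated, and 1 probe set a gene was kept by its interquartile range. The batches, tool versions and genome build are not given in the sources used here. Since ComBat can move group means, differences between tissues depend on it. Of 22080 genes 13 carry names turned into dates and are not named here.

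Samples were grouped by their titles. One line of each label says brain for every sample, and titles, sources and tissue fields were used instead. In limma 3.58.1 (R 4.3.3) 1 mean for each of 15 groups was fitted over the 45 arrays, with eBayes (prior degrees of freedom 7.34, residual 30), two-sided tests and Benjamini-Hochberg adjustment over 22080 genes in each of 20 comparisons. Calls needed both an adjusted p at or under 0.05 and a log2 difference above 0.7 in size. With 3 arrays against 3, an exact permutation test of 1 gene cannot go below p = 0.1. Within groups, the SD of a gene had a median of 0.11 (liver), 0.08 (kidney) and 0.09 (brain). Intervals are 95% from the same fit. The script was tested on simulated data.

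Named are the 10 genes, genes of 19 other lists past the thresholds in a liver comparison (up to 5 per list), defining markers, and the genes most like each of the 10. Mmp14, Marco, Smad6, Ltbp4, Eng, Cnn1, Myl9 and Tagln were chosen after their values were seen. Not every gene of the lists is reported here. The genes and lists were chosen with earlier results of these data known. Alternatives were the tissue's or the compared groups' arrays alone, pools A and B alone, pool letters as a replicate block, leaving out genes below 6 in every group, quantile normalization again within a tissue, trend and robust eBayes, no fold threshold, and each array left out. Figures used matplotlib 3.10.9 in Python 3.11.15.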

Additional observations from a re-analysis of the deposited data

Results flagged for a closer look

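Acta2 responded differently to HCD in liver and in brain. The liver difference (HCD minus Control, -0.52) minus the brain difference (0.18) was -0.70 ± 0.13 (SE) on the log2 scale, with an adjusted p of 0.00364 from limma's contrast of both differences. All 3 HCD arrays lay below all 3 Control arrays in liver, which was so for 8.77% of all genes. The brain difference alone did not pass (limma's adjusted p = 0.794). Over the 4 alternatives that refit the contrast of both differences, its value ran from -0.82 to -0.70 and limma's adjusted p from 0.00109 to 0.00786. With 1 array left out the value ran from -0.76 to -0.60, with limma's adjusted p up to 0.0238 (without Liver Control replicate B). Skeletal muscle markers were higher on the 3 liver Control arrays than on the HCD arrays that enter this value, squamous epithelium markers were high on Control pools A and B, and their part in it was not tested. Liver and brain arrays may come from the same mice, and the fit treated them as independent. Groups of 3 arrays are too small for a test of single outlying arrays.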

How the results depend on the processing

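With no fold threshold the count of genes passing limma's adjusted p was 1 for liver HCD against Control, 2 for the mean of the 4 cholesterol-fed groups in liver, 6, 9 and 9 for liver against kidney, liver against brain and kidney against brain, and 1 for the liver response minus the brain response. With pools A and B alone 1 gene was called, in place of 0, in liver HCD against Control (Des), in liver HCD+Sim against HCD (Des), and in the liver response minus the kidney and minus the brain response. Other settings kept each count within 1.5 times. With 1 array left out the counts ranged from 1 to 3 for liver against kidney, 3 to 5 for liver against brain, 4 to 5 for kidney against brain, 0 to 1 for the liver response minus the brain response and 0 to 1 for HCD+Sim against HCD, and stayed at 0 for the other diet comparisons.

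The sign turned for small values. Against Control, with pools A and B alone, Pdgfrb in HCD was 0.0397, and in the mean of 4 groups Col3a1 was 0.0003 and Tgfb1 0.0713. With 1 array left out the range was -0.0089 to 0.1153 for Tgfb1 and -0.0819 to 0.0431 for Pdgfrb in HCD, and -0.0866 to 0.0376 for Tgfb1, -0.0640 to 0.0027 for Timp1 and -0.2996 to 0.0112 for Lox in the mean of 4 groups. With Liver Control pools A and B both left out, an alternative chosen after seeing the data like the other fits without named arrays, Tgfb1 in HCD was -0.0255. With HCD+Sim pools A and B left out, Des against HCD was -0.2893. The cause was not tested.

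Acta2 in HCD passed the adjusted p under 5 of 8 alternatives and with each of 6 arrays left out (-0.58 to -0.42, limma's adjusted p up to 0.0188), and in the mean of 4 groups under 8 of 8 and with each of 15 arrays left out (-0.69 to -0.53). Des in the mean of 4 groups passed under 5 of 8, and with 10 of 15 arrays left out in turn (-0.66 to -0.29). The filter on dim genes left out Timp1 and Lox. Deviations of arrays with the same pool letter had a mean r of 0.08 in liver, -0.01 in kidney and -0.01 in brain. They ranged from -0.13 to 0.27, from -0.29 to 0.20 and from -0.38 to 0.42. Arrays with different letters had a mean r of -0.04, 0.00 and 0.01. With the pool letter as a replicate block, 0 of 10 genes were called in each diet comparison, Acta2 in HCD had limma's adjusted p = 0.00121 and Des 0.0939. In liver pool C lay between pools A and B for 22.0% of the gene and group pairs of the 10 genes.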
